A study of Mus musculus with 5 samples.

Results

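The regions described here hold strong peaks that 4 CUT&RUN peak lists, made with a WT1 antibody, have in common. The regions were selected on measured values. Each list was cut at rank 6440 by max signal, and the cut lists were merged wherever peaks shared 1 bp or more. A merged region was kept when a peak of all 4 cut lists touched it. M15 replicate 1 has 6440 peaks in all, so the cut removed none of them. The whole lists of M15 replicate 2 and KTS-minus replicates 1 and 2 hold 60925, 310999 and 244428 peaks. Chromosome X and the segment chr10:118000001-128000000, where 429 merged regions lie close together, were left out. This gave 1171 shared regions among 12983 merged regions (9.02%), against 1275 among 14667 with those segments included. CUT&RUN cuts out the DNA beside an antibody-bound protein with a tethered nuclease, so that a peak marks where the antibody's target, or something the antibody also holds, sat on chromatin.

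The series holds 5 samples from M15, a mouse line of mesonephric (embryonic kidney) epithelium that carries polyoma virus large T. WT1 antibody libraries exist for M15 (2 replicates) and for a genome-edited M15 derivative that the labels name KTS-minus (2 replicates), and 1 M15 library was made with IgG. The labels give no treatment. They do not say whether KTS-minus is 1 clone, which splice form of WT1 it still makes, or whether replicates were separate cultures, so the spread between replicates may be technical. The IgG library was not analysed here, so how much signal the control antibody leaves at these regions is not given.

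WT1 is a transcription factor with C-terminal zinc fingers that is required for kidney, gonad and mesothelium development. Splicing either inserts or skips 3 residues, KTS, between the last zinc fingers. The form without the insert binds GC-rich DNA of the kind also bound by EGR proteins, and the form with the insert is known for weaker DNA binding and for contacts with RNA and splicing factors. WT1 binding in kidney cells is known both at promoters and at distal enhancers.

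All coordinates are mm9, counted from 1. Genes, promoters and base sequence were not assigned to the regions, because the reference tables at hand belong to GRCm38. No test was made, because the regions were picked on the same signal: counts and medians are descriptions. Max signal is the highest coverage inside a peak, in the authors' own units. It has no known common scale between lists, so values are read by their rank inside each list.

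Peaks in shared regions ranked higher in their own list than the other cut peaks, with median ranks of 1248 against 3615.5 and 1306 against 3510.5 in M15 replicates 1 and 2, and 1303 against 3743 and 1161.5 against 3737.5 in KTS-minus replicates 1 and 2. The cut lists held 6017, 5669, 5306 and 5354 peaks outside the segments left out, in the order M15 replicates 1 and 2 and KTS-minus replicates 1 and 2. Of these peaks, 22.5%, 24.6%, 22.5% and 24.3% lay in shared regions. They carried more than their share of the total signal of those peaks: 37.1%, 38.7%, 42.1% and 45.7%. They also took up 27.5%, 32.4%, 38.1% and 40.8% of the peaks' summed length. In all 4 lists the share of length lay between the share of peaks and the share of signal.

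Among the first 100 ranks, 84.9% of M15 replicate 1 peaks (95% Wilson interval 75.8 to 90.9), 90.1% of M15 replicate 2 peaks (82.3 to 94.7) and 88.8% of KTS-minus replicate 2 peaks (80.5 to 93.8) lay in shared regions. KTS-minus replicate 1 stood apart with 52.9% (42.4 to 63.2): 40 of its 85 strongest peaks outside the left-out segments were not shared. From rank 101 to 500 the shares were 74.2%, 72.7%, 69.1% and 74.0%, in the same order of libraries, and the intervals of all 4 overlapped. Between rank 4001 and 6440 they had dropped to 7.72%, 10.8%, 8.90% and 8.34%. Intervals cover counting error over peaks only, and neighbouring peaks are not independent. The 4 libraries are counted over the same shared regions, so their intervals are not independent of each other. Rank and sharing both rest on max signal.

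**Figure D1:**
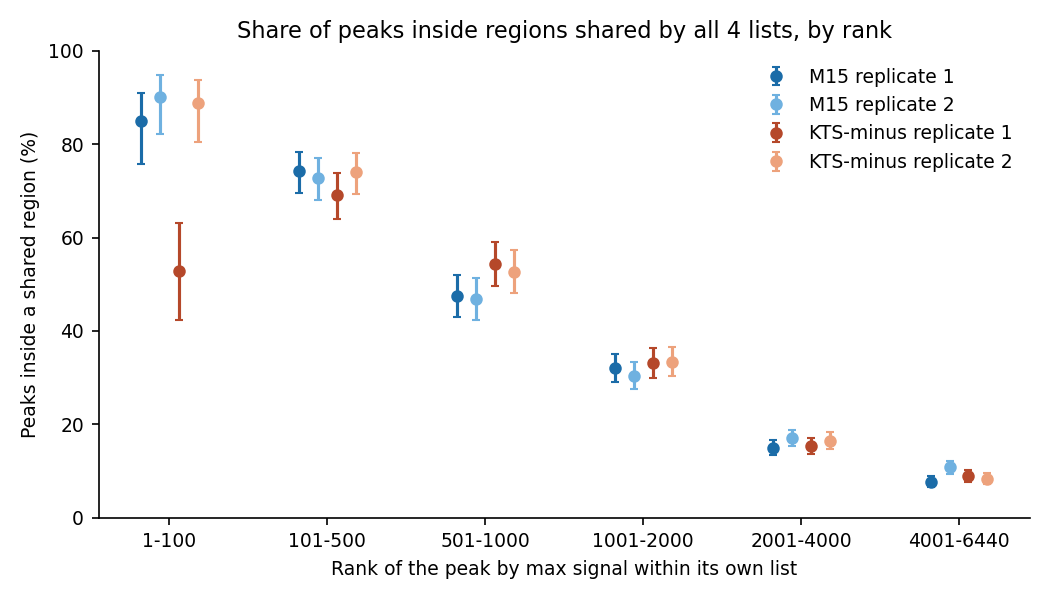
Share of peaks inside shared regions (y axis, %) by rank of max signal in the peak's own list (x axis), with points for the 4 libraries and bars for 95% Wilson intervals. Beyond rank 100 the libraries lie close together, falling to between 7.72% and 10.8%; in the first 100 ranks KTS-minus replicate 1 lies at 52.9% and the other libraries between 84.9% and 90.1%.

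The strongest peaks of the lists fell on both sides of this boundary. The first peak of M15 replicate 2, with a max signal of 122, was the top shared region, chr17:71312317-71313255. The first peak of KTS-minus replicate 2 reached 1165 and was also shared: its region, chr5:29646669-29653713, reached 312 in KTS-minus replicate 1 (rank 4), 102 in M15 replicate 1 (rank 241) and 49 in M15 replicate 2 (rank 80). The first peak of KTS-minus replicate 1, chr9:24345327-24346887 with 413, met no peak of any other whole list. The first peak of M15 replicate 1, with 434, lay in the left-out segment of chromosome 10.

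The strongest peak of a library in a shared region had a max signal with lowest, median and highest values of 10, 60 and 300 in M15 replicate 1 and of 12, 24 and 122 in M15 replicate 2. In KTS-minus replicates 1 and 2 these were 25, 34 and 319, and 40, 61 and 1165. Inside a peak the signal was concentrated: the maximum was a median of 3.73, 3.16, 3.77 and 3.55 times the mean coverage over the peaks in shared regions, in the usual order of libraries, against 3.30, 2.89, 3.53 and 3.05 over the other cut peaks. The stretch at maximum coverage was short, with medians of 5, 11, 9 and 7 bp, against 8, 14, 12 and 13 bp in the other cut peaks. Max signal is part of this ratio and is the value the rule ranked on. These differences from the other cut peaks are thus not independent of the choice of regions.

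At the shared regions the 4 libraries ranked sites alike to different degrees. The strongest peak of each library in a region had a median rank of 1029 in M15 replicate 1, 1074 in M15 replicate 2, 1292 in KTS-minus replicate 1 and 1042 in KTS-minus replicate 2. In 111 regions all 4 ranks were within 500, and in 14 within 100. Spearman's rho between ranks, over the 1171 regions, was 0.79 between both M15 libraries and 0.42 between both KTS-minus libraries. KTS-minus replicate 2 gave 0.51 with M15 replicate 1 and 0.47 with M15 replicate 2. M15 replicates 1 and 2 gave 0.36 and 0.42 with KTS-minus replicate 1. The KTS-minus pair was thus ranked no more alike than pairs from different lines that included KTS-minus replicate 2. The points share their selection, which removed weak ranks from every list. KTS-minus replicate 1 gave the weakest of the 4 ranks in 444 regions, KTS-minus replicate 2 in 290, M15 replicate 2 in 252 and M15 replicate 1 in 185.

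The 8 regions with the best mean rank lay on 7 chromosomes. The first, chr17:71312317-71313255, had max signals of 206 and 122 in M15 replicates 1 and 2 (ranks 12 and 1) and 223 and 268 in KTS-minus replicates 1 and 2 (ranks 10 and 8). Next came chr12:79451243-79452399, with 179 and 104 in M15 (ranks 21 and 3) and 222 and 284 in KTS-minus (ranks 11 and 7). In chr5:147071547-147073468 the M15 values were 160 and 107 (ranks 39 and 2) and the KTS-minus values 306 and 374 (ranks 5 and 5). These 3 regions were at most 1922 bp wide and ranked 39th or better in every library.

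The fourth, chr6:3150645-3153492, reached 168 and 82 in M15 (ranks 28 and 10) and 217 and 246 in KTS-minus (ranks 12 and 11). The fifth, chr14:70472156-70478568, reached 185 and 63 in M15 (ranks 19 and 25) and was at rank 28 in both KTS-minus libraries. At 6413 bp it was the first broad region in the order, with peaks of 3472 and 3507 bp in M15 and of 6413 and 3007 bp in KTS-minus. The other 3 were chr2:5299894-5300598 (ranks 57, 30, 18 and 16 in the same order of libraries), chr8:15519059-15520132 (ranks 67, 23, 20 and 12) and chr2:167892662-167913345 (ranks 18, 12, 41 and 52). The last of these was 20684 bp wide and was built from 13 peaks, 1 of which, from KTS-minus replicate 1, spanned the whole region.

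Shared regions were wide. Their median width was 4434 bp (quartiles 3070.5 and 6741.5, range 703 to 81619), and they covered 6.62 Mb in all. Merged regions touched by 3, 2 and 1 cut lists had medians of 2645, 1966 and 1027.5 bp. A region built from more peaks is wider by construction, and a wide peak meets other peaks more easily, so this order follows in part from the rule. The sequence inside a peak of all 4 libraries was shorter, with a median of 1338 bp or 32.9% of the region. In 18 regions no base lay in all 4.

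One library set most of the width. KTS-minus replicate 1 had the widest peak in 900 of the 1171 regions, and its peaks there had a median of 3973 bp. The strongest peaks of M15 replicates 1 and 2 and of KTS-minus replicate 2 had medians of 1939, 1982 and 1973 bp, within 50 bp of each other. Without KTS-minus replicate 1 the regions shared by the 3 other lists numbered 1902 and had a median width of 2571 bp. In every list the peaks in shared regions were wider than the other cut peaks, with medians of 1943 against 1575.5 bp and 1955 against 1357.5 bp in M15 replicates 1 and 2, and of 3971 against 1671 bp and 1976.5 against 816.5 bp in KTS-minus replicates 1 and 2.

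Most shared regions were simple in the cut lists. In 925 of them (79.0%) each library contributed exactly 1 peak of its cut list. At least 2 cut peaks came from M15 replicate 1 in 147 regions, from M15 replicate 2 in 173, from KTS-minus replicate 1 in 24 and from KTS-minus replicate 2 in 99. In the whole lists, before the cut, M15 replicates 1 and 2 had more than 1 peak in 147 and 506 regions. KTS-minus replicates 1 and 2 had more than 1 in 213 and 633. The whole lists filled the regions to a median of 49.8% and 60.1% in M15 replicates 1 and 2, 97.1% in KTS-minus replicate 1 and 62.6% in KTS-minus replicate 2.

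Of the shared regions, 22 (1.88%) were narrower than 1500 bp, against 48.5% of all merged regions, a boundary chosen after the widths were seen. They were unevenly placed along the order of strength: 6 were among the 25 regions with the best mean rank and 8 among the best 50, while the next stood at a mean rank of 592.75. These 8 lay on 8 different chromosomes, at mean ranks from 7.75 to 120.5, and their 4 summits were spread over 5.5 to 42.5 bp. Over all 22 narrow regions the median summit spread was 60.5 bp, against 263 bp in the others. A narrow region leaves its summits less room, so this difference follows in part from the boundary. Besides the chromosome 17, 12, 2 and 8 regions above, they were chr16:17222117-17222819, chr1:197067423-197068374, chr11:53953298-53954477 and chr13:44964861-44965619.

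The chromosome 16 region, the narrowest at 703 bp, reached 125 and 97 in M15 replicates 1 and 2 and 227 and 266 in KTS-minus replicates 1 and 2, with ranks of 115, 4, 8 and 9. The chromosome 1 region reached 113 and 92 in M15 (ranks 165 and 5) and 319 and 345 in KTS-minus (ranks 3 and 6). The chromosome 11 region reached 85 and 65 in M15 (ranks 426 and 24) and 289 and 218 in KTS-minus (ranks 6 and 14), and the chromosome 13 region 92 and 46 in M15 (ranks 331 and 112) and 150 and 187 in KTS-minus (ranks 21 and 18). In all 8 regions M15 replicate 1 gave the weakest rank of the 4 libraries.

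**Figure D2:**
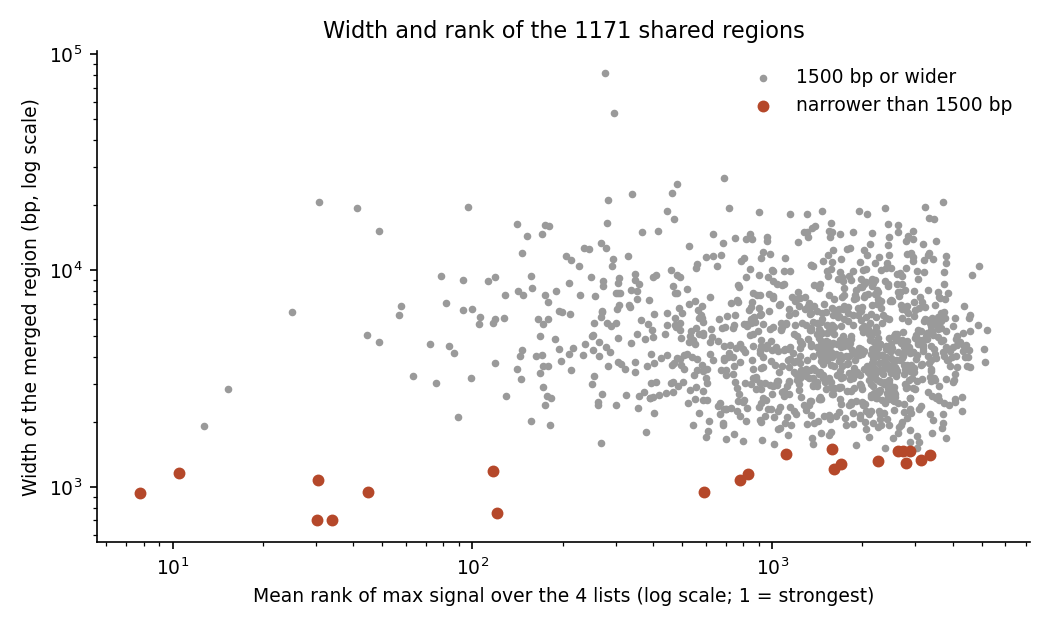
Width of each of the 1171 shared regions (y axis, bp, log scale) against its mean rank of max signal over the 4 lists (x axis, log scale, 1 is strongest). The 22 regions narrower than 1500 bp are in red; 8 of them lie at mean ranks of 120.5 or better and the other narrow ones start at 592.75.

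The widest shared regions were at the opposite end of shape. The widest, chr1:90107842-90189460, was 81619 bp long and was joined from 28 peaks. Its strongest peaks had max signals of 102 and 30 in M15 (ranks 237 and 525) and 65 and 91 in KTS-minus (ranks 102 and 239), and the KTS-minus replicate 1 peak alone was 49015 bp wide. The next were on chromosome 19: chr19:46549604-46603069 (53466 bp, 17 peaks), chr19:44330382-44357237 (26856 bp, 8 peaks) and chr19:45116801-45141825 (25025 bp, 7 peaks). In each of these, KTS-minus replicate 1 held the widest peak, of 41462, 26670 and 25025 bp, while the strongest peaks of the other libraries were 970 to 6056 bp wide. In all, 10.9% of shared regions were wider than 10 kb.

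The summit of a peak is the stretch where coverage reaches its maximum. Its position took no part in choosing the regions, but its height is the max signal that the rule ranked on. Summit agreement is thus not independent of the choice, and 2 summits in a region can lie no farther apart than its edges. Summits of the 4 libraries lay nearer to each other than peak midpoints did. The distance between the outermost of the 4 summit midpoints had a median of 259.5 bp (quartiles 107 and 748.25). The maximum stretches of all 4 libraries overlapped in 0.769% of regions. For pairs of libraries, the difference from other regions changed sign, as given below. Over the same regions the 3 summits other than that of KTS-minus replicate 1 had a median spread of 130.5 bp, and leaving out another library gave 191.5 to 220 bp. With regions chosen by total signal in place of max signal the median was 548.5 bp. The midpoints of the same peaks had a median spread of 933.5 bp. Summits were tighter than peak midpoints in 925 of the 1171 regions (79.0%). This was not particular to shared regions. Where a pair of lists met without all 4, median summit distances were 59.75 to 170.5 bp across pairs. Median midpoint distances there were 217 to 494 bp. All 4 summits fell within 200 bp in 495 regions (42.3%, interval 39.5 to 45.1), within 100 bp in 270 (23.1%) and within 50 bp in 119 (10.2%). The 4 peak midpoints fell within 200 bp in 33 regions (2.82%).

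The tightest summits came from sites of middling strength as well as from the top. In chr6:121057677-121062063 the highest stretch ran from 121060295 to 121060296 in M15 replicate 1, from 121060298 to 121060301 in M15 replicate 2 and from 121060294 to 121060302 in both KTS-minus libraries, so the midpoints lay within 4 bp. Ranks there were 370, 155, 2264 and 1019, in the order M15 replicates 1 and 2 and KTS-minus replicates 1 and 2, and the peaks themselves were 1067, 3073, 3944 and 2353 bp wide. In chr14:90008667-90011564 the stretches began at 90009787, 90009771, 90009787 and 90009786, again with midpoints within 4 bp, at ranks of 2412, 631, 1120 and 2624.

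The next were chr6:87370121-87374428 (4.5 bp, ranks 347, 2386, 1264 and 398), chr1:197067423-197068374 (5.5 bp) and chr8:122905000-122909468 (6 bp, ranks 168, 182, 4989 and 1871). In chr1:197067423-197068374 the stretches ran from 197067917 to 197067923 and from 197067914 to 197067919 in M15 and from 197067917 to 197067922 and at 197067922 alone in KTS-minus. In 4 of these 5 regions the peaks' own midpoints were 390 to 1184 bp apart, and in chr1:197067423-197068374 they were 254.5 bp apart.

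The distance between summits depended on which libraries were paired, and 1 library moved it most. The M15 pair had a median of 58.5 bp over the 1171 regions (quartiles 17 and 171.75). KTS-minus replicate 2 lay at a median of 67.5 and 83.5 bp from M15 replicates 1 and 2. The 3 pairs with KTS-minus replicate 1 had medians of 123.5, 134.5 and 130 bp, with M15 replicate 1, M15 replicate 2 and KTS-minus replicate 2 respectively. KTS-minus replicate 2 was thus nearer to both M15 libraries than to its own replicate. Peak midpoints gave the same order of groups, at 244 bp for the M15 pair, 287.5 and 321.5 bp for KTS-minus replicate 2 with M15, and 562, 602 and 606.5 bp for pairs with KTS-minus replicate 1. The wider peaks of KTS-minus replicate 1 moved with this, and their part in it was not tested.

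**Figure D3:**
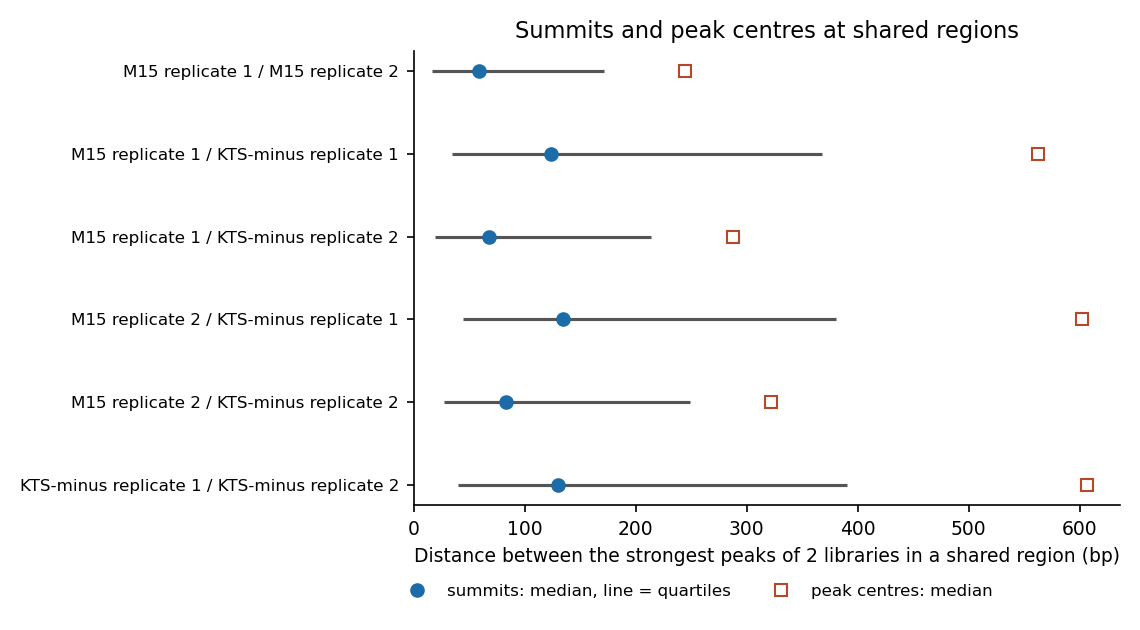
Distance in bp (x axis) between the strongest peaks of 2 libraries in the 1171 shared regions, for the 6 pairs of libraries (y axis). Filled circles are medians between summits with lines from the first to the third quartile, and open squares are medians between peak midpoints; summits are nearer than midpoints in all 6 pairs, and the 3 pairs with KTS-minus replicate 1 have the largest medians, 123.5 to 134.5 bp.

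For single pairs of libraries, the share of regions with summits within 200 bp was set beside 2 shares: that of all regions the pair had in common, which include the shared regions, and that of the regions left once the shared ones were taken out. In the M15 pair 908 shared regions (77.5%) had them, against 80.1% of all 3837 merged regions touched by both M15 cut lists. M15 replicate 1 with KTS-minus replicate 2 gave 861 (73.5%) against 76.4% of 2191, and M15 replicate 2 with KTS-minus replicate 2 gave 832 (71.1%) against 73.3% of 2114. For KTS-minus replicate 1 the counts were 721 (61.6%) against 58.9% of 1904 with M15 replicate 1, 722 (61.7%) against 59.8% of 1919 with M15 replicate 2 and 692 (59.1%) against 59.7% of 1515 with KTS-minus replicate 2. In the remaining regions alone the M15 pair had a share of 81.2%, and KTS-minus replicate 2 had 79.6% with M15 replicate 1 and 76.1% with M15 replicate 2, all above the shared regions. It was 54.6% and 57.0% for KTS-minus replicate 1 with M15 replicates 1 and 2, below the shared regions, and 61.9% with KTS-minus replicate 2, above them. The difference from the remaining regions thus changed sign between pairs. The regions that a pair shared without all 4 lists touching them were narrower, with median widths from 2137 to 3578 bp across the 6 pairs.

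Summits agreed better where the region was stronger. The shared regions were divided by mean rank into 4 groups of 292 or 293. In the strongest group (mean ranks 7.75 to 720.25), all 4 summits lay within 200 bp in 175 of 293 regions (59.7%). The shares in the next groups were 49.8%, 34.2% and 25.3%, and the median spread went from 145.5 bp through 200.5 and 323.25 to 464.5 bp. Width did not follow the same course, with medians of 4984, 4361, 4275.5 and 4341 bp, and the spread of peak midpoints was 1010, 834, 879 and 1008 bp. With KTS-minus replicate 1 left out, the 3 other summits lay within 200 bp in 80.2%, 67.9%, 53.4% and 43.3% of the 4 groups, and leaving out any other library also gave falling shares. Over all 1171 regions Spearman's rho between mean rank and summit spread was 0.34, and 0.35 between width and summit spread. Divided into 4 groups by width, the narrowest group (703 to 3069 bp) had all summits within 200 bp in 55.6% of regions and the widest (6748 to 81619 bp) in 28.7%. Width also sets how far apart summits can lie.

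**Figure D4:**
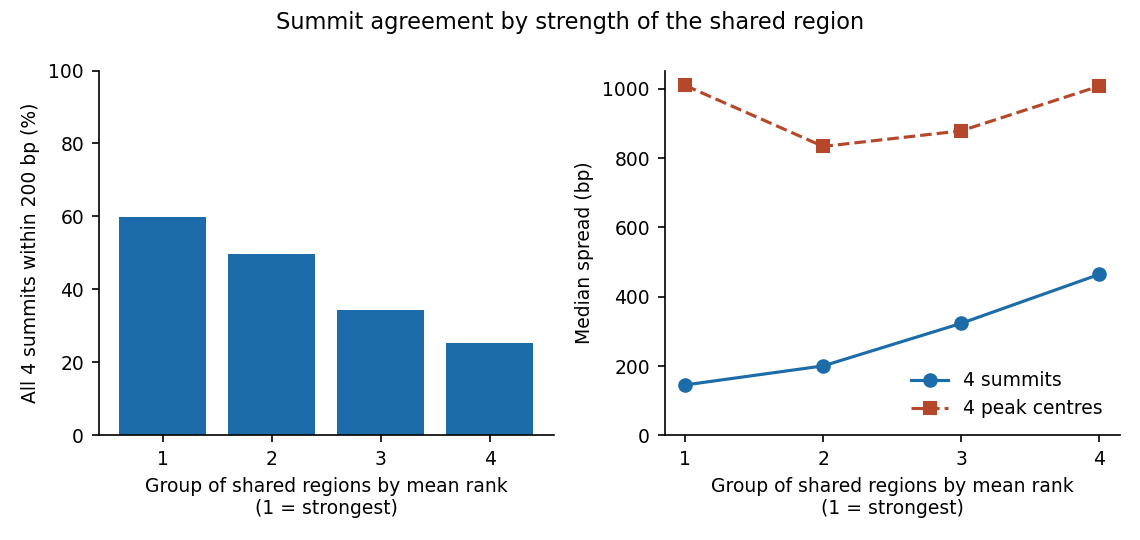
Left, share of shared regions with all 4 summits within 200 bp (bars, %), in 4 groups by mean rank (x axis, group 1 is strongest); right, median spread of the 4 summits (circles) and of the 4 peak midpoints (squares), in bp. The share falls from 59.7% to 25.3% and the summit spread rises from 145.5 to 464.5 bp, while the midpoint spread stays between 834 and 1010 bp.

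In 239 shared regions (20.4%) the 4 summits were spread over more than 1 kb. In 79 of these, 3 summits lay within 200 bp and 1 library was apart: KTS-minus replicate 1 in 48, KTS-minus replicate 2 in 15, M15 replicate 2 in 10 and M15 replicate 1 in 6. The region with the largest spread, 18205 bp, was the widest, chr1:90107842-90189460. There both M15 summits included base 90155987, the KTS-minus replicate 2 summit began at 90156039 and only the KTS-minus replicate 1 summit lay elsewhere, at 90174175. In chr6:29716469-29730938 (12745 bp) the same library was again apart: its summit began at 29730789 and the others at 29718328, 29718042 and 29718078.

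In the other 3 of the 5 regions with the largest spread, summits of the same line did not always lie together. In chr8:19679826-19698110 (14519 bp) the summits of M15 replicate 1 and KTS-minus replicate 1 began at 19695594 and 19695699, that of M15 replicate 2 at 19681168 and that of KTS-minus replicate 2 at 19686771. In chr19:5057714-5077226 (13354.5 bp) the M15 summits began at 5072126 and 5072293, and those of KTS-minus replicates 1 and 2 at 5067921 and 5058941. In chr6:52105870-52128721 (13232 bp) M15 replicate 1 had its summit at 52122713, and M15 replicate 2 and both KTS-minus libraries at 52109465, 52110642 and 52109465. M15 replicate 2 and KTS-minus replicate 2 thus began at the same base there, with stretches of unequal length.

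Most shared regions stood alone at 50 kb, and the others formed small groups. The gap from a shared region to the nearest other one had a median of 119513 bp (quartiles 27565 and 499672). Of the 1171 regions, 408 (34.8%, interval 32.2 to 37.6) had another within 50 kb, 153 within 10 kb and 47 within 1 kb, while 189 (16.1%) had none within 1 Mb. Measured from centre to centre, 32.5% had another within 50 kb. Chained at 50 kb, 763 regions had no partner and the 408 formed 176 groups: 131 of 2 regions, 37 of 3, 7 of 4 and 1 of 7. In bins of 1 Mb, shared regions occupied 586 of the 2051 bins that held any merged region (28.6%), and 35 bins with 5 or more held 234 of them (20.0%), with at most 12 in a bin.

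Against merged regions of every kind, shared regions had nearer neighbours. Another merged region lay within 50 kb of 989 shared regions (84.5%), against 66.7% of all merged regions. The share was 78.7%, 76.2% and 59.3% for regions touched by 3, 2 and 1 cut lists. From centre to centre, which lessens the effect of width, the shares were 83.2% for shared regions and 77.6%, 75.2% and 58.6% for the others. Regions in 2 or 3 lists thus lay nearer in value to shared regions than to regions in 1 list.

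Groups are named by size and, among the 7 groups of 4, by the shortest span. The largest group held 7 shared regions on chromosome 19 from 46376911 to 46676168, a span of 299258 bp. Its members ranged in mean rank from 296 to 3647.5. The strongest was chr19:46549604-46603069, the second widest of all, with max signals of 124 and 38 in M15 (ranks 117 and 238) and 40 and 92 in KTS-minus (ranks 602 and 227). The weakest, chr19:46517614-46523966, reached 27 and 13 in M15 (ranks 4528 and 4914) and 34 and 44 in KTS-minus (ranks 1254 and 3894). Strong and weak sites thus stood side by side in 1 group.

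The most compact group of 4 covered 34248 bp on chromosome 15 from 78655631 to 78689878 and was filled almost without gaps, with 32634 bp in regions and neighbours as close as 56 bp. Its strongest region, chr15:78683472-78689878, reached 101 and 42 in M15 (ranks 250 and 171) and 58 and 92 in KTS-minus (ranks 147 and 229). Another 4 lay on chromosome 11 from 101487840 to 101550791, all between 2974 and 5362 bp wide, with mean ranks from 463.25 to 1555.75. Chromosome 19 held both other named groups of 4, from 5782427 to 5854154 and from 44319770 to 44391824. The best site of the first was chr19:5834543-5854154, with 124 and 46 in M15 (ranks 116 and 102) and 59 and 153 in KTS-minus (ranks 136 and 33). The best of the second was chr19:44357626-44373642, with 127 and 34 in M15 (ranks 108 and 358) and 52 and 148 in KTS-minus (ranks 215 and 39).

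All 19 autosomes held shared regions, in unequal density. Chromosome 11 had 162, chromosome 6 had 145 and chromosome 19 had 99, against 10 each on chromosomes 3 and 12. Per Mb between the first and last peak of any whole list, this is 1.70 on chromosome 19, 1.36 on chromosome 11 and 0.99 on chromosome 6, and 0.064 on chromosome 3 and 0.085 on chromosome 12. Groups chained at 50 kb were counted 32 times on chromosome 11, 25 on chromosome 6, 18 on chromosome 15 and 17 on chromosome 19. Chromosomes 3, 12 and 18 had none.

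As a share of merged regions, chromosomes 19 and 11 led with 13.8% (interval 11.4 to 16.5) and 12.8% (11.1 to 14.8), against 9.02% over all autosomes. Chromosome 6, with 10.4 merged regions per Mb, stood at 9.48% (8.11 to 11.1), near that background. Its cut peaks numbered 444 and 479 in M15 replicates 1 and 2, against 886 and 654 in KTS-minus replicates 1 and 2. Chromosome 3 was lowest with 3.24% (1.77 to 5.85), followed by chromosome 13 with 4.39% (2.89 to 6.62), chromosome 12 with 4.81% (2.63 to 8.62) and chromosome 18 with 5.37% (3.02 to 9.35). Across the 19 chromosomes the share went with the number of merged regions per Mb (Spearman's rho 0.76). The points share the merged regions counted on both sides. Counting error over regions is all that the intervals cover, and neighbouring regions are not independent. The order of the leading 2 changed with the cut: chromosome 11 led with 19.7% when peaks were ranked by total signal and with 9.09% when lists were cut at double the length.

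**Figure D5:**
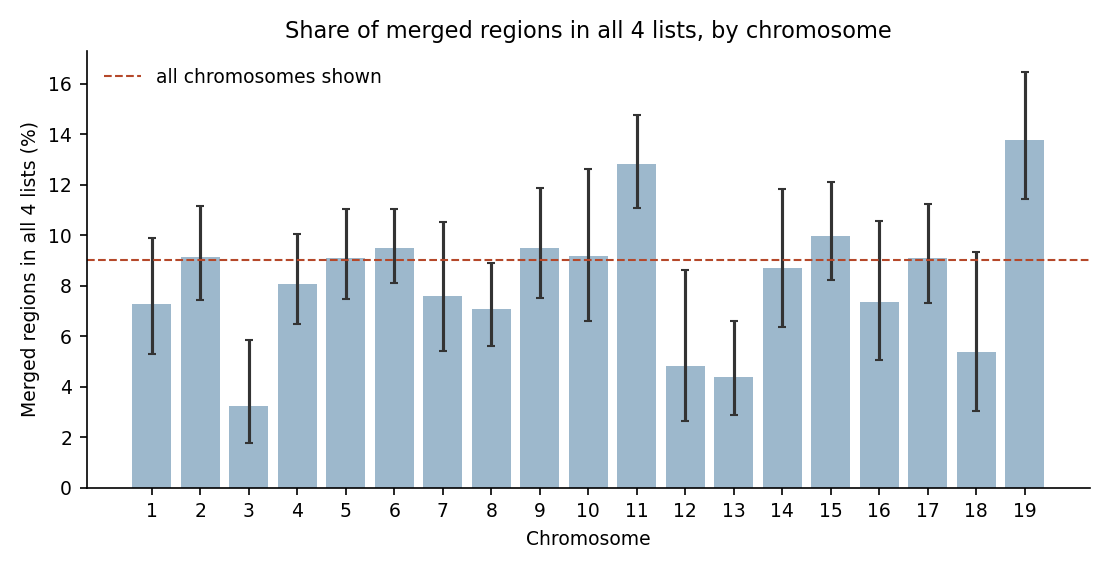
Share of merged regions touched by all 4 cut lists (bars, y axis, %) on each autosome (x axis), with 95% Wilson intervals and a dashed line at 9.02%, the share over all of them. Chromosomes 11 and 19 lie above the line with their whole interval, and chromosomes 3, 8, 12 and 13 lie below it. The line includes these chromosomes. The intervals cover counting error only, over regions that are not independent, and test no chromosome against the line.

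The rule cut through tied values. The last max signal kept was 7 and 12 in M15 replicates 1 and 2 and 25 and 40 in KTS-minus replicates 1 and 2, and in the last 3 lists the first peak left out had the same value as the last one kept. The weakest library of a shared region had a median rank of 2764 and a highest rank of 6421. The nearest inside were chr3:41408908-41410684, chr17:35894900-35897169 and chr5:107515944-107517934, each with 40 in KTS-minus replicate 2 (ranks 6421, 6412 and 6406), and chr4:146763130-146780573, with 10 in M15 replicate 1 (rank 6403). In the first of them M15 reached 44 and 26 and KTS-minus replicate 1 reached 27.

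Just outside were chr8:93431100-93433917, with 98 and 20 in M15, 65 in KTS-minus replicate 2 and 25 in KTS-minus replicate 1 (rank 6457), and chr5:140211303-140212824 (rank 6467 in the same library). KTS-minus replicate 2 left out chr2:30571003-30576666 and chr6:72310520-72314870 at 40 (ranks 6450 and 6454). M15 replicate 2 left out chr11:87273119-87279313 and chr2:180695668-180702362 at 12 (ranks 6531 and 6535).

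Of the 1359 regions touched by 3 cut lists, 703 lacked KTS-minus replicate 1, 442 lacked KTS-minus replicate 2, 136 lacked M15 replicate 1 and 78 lacked M15 replicate 2. Many of these regions had a weaker peak of the missing library. The whole lists of KTS-minus replicates 1 and 2 and of M15 replicate 2 had a peak in 686, 439 and 73 of them, at median ranks of 18870, 21355 and 8870. These counts are 97.6%, 99.3% and 93.6%, against 74.9%, 71.0% and 38.8% of all merged regions outside the cut list of that library. Regions touched by 2 other cut lists gave 94.5%, 93.9% and 87.5%. These 3 whole lists differ in length from 60925 to 310999 peaks, so these ranks cannot be compared between libraries. For M15 replicate 1 the whole list is the cut list, and none of its 136 could have a further peak.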

How the data were processed

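WT1 was profiled by CUT&RUN in M15 (2 libraries) and KTS-minus (2 libraries), and the authors deposited 1 peak list per library. The deposited lists give each peak's total signal, max signal and stretch of maximum coverage, which the authors made with build mm9 and tools including SEACR 1.3, a CUT&RUN peak caller, per the submitters' processing notes. These also name Bowtie2 2.2.6, SAMtools 1.3, Picard 2.5.0, FastQC 0.11.8 and bedtools 2.23.0. What each of these did, the peak threshold, the control and any scaling: not given in the sources used here. The lists hold no read counts, so depth and its precision are unknown, and signal is compared within a list only.

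Peaks were ranked by max signal, ties by total signal and then by position. The lists were cut to 6440 peaks and merged at 1 bp of overlap, using Python 3.11.15, pandas 2.3.3, numpy 2.4.6, scipy 1.17.1 and matplotlib 3.10.9. Where a library had several peaks in a region, the strongest gave its rank, width and summit. The summit is the midpoint of the maximum stretch, and a spread is the distance between the outermost of 4 midpoints. Gaps run from edge to edge.

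The regions named are the 8 with the best mean rank, the 5 tightest and 5 widest by summit spread, the 4 widest, the 4 narrowest, the 5 groups with most members (ties by shorter span) and those nearest the limit of the rule. The 8 strongest narrow regions, the boundary of 1500 bp and the centre-to-centre gap were chosen after the data were seen. The members and lists were chosen with earlier results of these data known. Wilson intervals at 95% cover counting error over regions only. The functions were tested on simulated data. Alternatives varied the ranking, list length, overlap, segments left out, distances and libraries. Genes, promoters and motifs were not analysed here, because the tables at hand are of GRCm38.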

Additional observations from a re-analysis of the deposited data

How the results depend on the processing

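Of 55 alternative values, 25 stayed within set limits and 30 moved beyond them. The limit was the Wilson interval for a share and 1.5 times for the count of regions. For width it was the standard deviation of the libraries' median peak widths, taken over both lines together. For summit spread it was the standard deviation of the median summit distances over all pairs of libraries, pairs from different lines included. Neither of these is a spread between replicates alone. A longer or shorter distance fixes in advance the direction in which a share moves. Leaving out a library relaxes the rule, so more regions can pass. Such moves are counted among the 30. The 1171 shared regions became 672 with lists of 3220 peaks, and 1251 to 1902 when 1 library was left out, most without KTS-minus replicate 1. The median width of 4434 bp became 5590 bp when peaks were ranked by total signal and 2571 to 4265 bp with a library left out, the lowest without KTS-minus replicate 1.

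The median summit spread of 259.5 bp became 548.5 bp by total signal, 201 bp at 3220 peaks and 118.5 to 214.5 bp with a library left out, where 3 summits are compared in place of 4. The share with all summits within 200 bp, 42.3%, became 26.9% by total signal, 49.9% at 3220 peaks, 37.8% at 12880 peaks and 47.9% to 65.7% with a library left out, highest without KTS-minus replicate 1. It was 23.1% within 100 bp, 67.5% within 500 bp and 0.769% where the maximum stretches of all 4 libraries had to overlap.

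The share with another shared region within 50 kb, 34.8%, became 42.0% by total signal, 25.3% at 3220 peaks, 40.6% at 12880 peaks, 34.5% to 41.5% with a library left out, 13.1% within 10 kb and 59.7% within 200 kb. Measured from centre to centre, an alternative added after the data were seen, it was 32.5%. The highest share on a chromosome, 13.8% on chromosome 19, became 19.7% on chromosome 11 by total signal, 17.8% on chromosome 19 at 3220 peaks and 9.09% on chromosome 11 at 12880 peaks. Apart from the number of regions and summits compared, the cause was not tested.

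No paired analysis was possible because no value comes from a test. Depth is unknown in all 4 libraries, 1589, 1709 and 988 peaks share the last max signal kept in M15 replicate 2 and KTS-minus replicates 1 and 2, and signal with IgG at these regions was not analysed here.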

Other observations

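The regions left out differ in shape from those kept. On chromosome X, 57 of 1255 merged regions (4.54%) were touched by all 4 cut lists, with a median width of 17830 bp, and 13 of the 57 had all summits within 200 bp. In the segment of chromosome 10, 47 of 429 merged regions (11.0%) were touched by all 4, with a median width of 32194 bp, and 12 of the 47 had all summits within 200 bp.

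Strong peaks that met no peak of any other whole list were counted. Of the peaks ranked 500 or better outside the left-out segments, this held for 6 of 470 in M15 replicate 1, 1 of 472 in M15 replicate 2, 11 of 409 in KTS-minus replicate 1 and 5 of 462 in KTS-minus replicate 2. As shares these are 1.28%, 0.212%, 2.69% and 1.08%, against 1.01%, 2.26%, 27.8% and 24.7% of all cut peaks of the same lists. The M15 lists are set against KTS-minus lists of 310999 and 244428 peaks, so shares are compared within a list only. Examples are chr16:57391003-57391959 in M15 replicate 1, with a max signal of 303 at rank 3, and chr17:3079069-3080978 in KTS-minus replicate 2, with 111 at rank 111.

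Among merged regions touched by the cut lists of 1 line only, the M15 pair had 1521 and the KTS-minus pair 130. In 27 of the 1521 (1.78%) and 29 of the 130 (22.3%) neither whole list of the other line had a peak. The whole lists of the lines differ in length, from 6440 and 60925 peaks in M15 to 310999 and 244428 in KTS-minus, so these shares are not on the same footing.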
